A study of Mus musculus with 18 samples.

Results

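The BCL2 family of apoptosis regulators was followed across the fat depots of obese mice. It was taken here as 10 genes found by symbol among the 25124 genes of each count table, and all 10 were in all 3 tables. The RNA-seq libraries came from male mice on a C57BL/6J background, and from 3 fat depots: inguinal (iWAT) and epididymal (eWAT) white fat, and brown fat (BAT). WT mice and C6KO mice, which lack caspase-6 in every tissue from the germline on, came from crosses between heterozygous mice, and littermates and cagemates of both genotypes were used. Both genotypes were fed an HFD (high fat diet) with 60% fat for 12 weeks, begun between 10 and 14 weeks of age, so no group on chow diet enters these data. The 6 groups (3 depots in WT and in C6KO) hold 3 libraries each, 18 in all, described by the submitters as biological replicates. Whether the 3 depots came from the same animals was not given in the sources used here.

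BCL2 family proteins decide whether the outer membrane of the mitochondrion is permeabilised, the step that releases cytochrome c and leads to activation of caspase-9 and of the executioner caspases, among which caspase-6 is counted. Anti-apoptotic members (Bcl2, Bcl2l1 encoding BCL-XL, and Mcl1) hold back the effectors Bax and Bak1, which form the pore. BH3-only members (Bid, Bad, Bcl2l11 encoding BIM, Bbc3 encoding PUMA, and Pmaip1 encoding NOXA) sense stress or death signals and either bind the anti-apoptotic proteins or activate the effectors. In obese fat, dying adipocytes are surrounded by macrophages, and the same family also sets the lifespan of those immune cells. Many of these proteins are controlled after translation, and none of that is seen in RNA.

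The stretch that names the BH3-only class is shared by the whole family, and it is shown here because binding between members runs through it. In the GENCODE M21 transcripts (GRCm38), 9 members were searched, all but Pmaip1. Translation of each held exactly 1 match to a simple BH3 pattern of 6 residues. The pattern is a leucine, any 3 residues, then glycine, serine or alanine, then aspartate. The 18 bases that encode the match are in capitals, with 12 coding bases on either side in lower case, on the coding strand:

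Bcl2: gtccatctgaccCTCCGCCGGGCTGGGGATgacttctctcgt
Bcl2l1: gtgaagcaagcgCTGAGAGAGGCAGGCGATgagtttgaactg
Mcl1: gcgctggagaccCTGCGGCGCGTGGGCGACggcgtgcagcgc
Bax: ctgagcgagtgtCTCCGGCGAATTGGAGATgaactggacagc
Bak1: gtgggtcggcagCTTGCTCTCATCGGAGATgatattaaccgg
Bid: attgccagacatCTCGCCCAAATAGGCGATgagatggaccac
Bad: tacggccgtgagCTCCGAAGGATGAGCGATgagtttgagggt
Bcl2l11: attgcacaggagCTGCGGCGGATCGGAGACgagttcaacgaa
Bbc3: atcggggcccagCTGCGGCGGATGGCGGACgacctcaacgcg

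The capitals lie in the coding sequence of 1 exon in each gene. On the minus strand they are at chr1:106712584-106712601 (exon 1 of 2 of Bcl2), chr2:152829706-152829723 (exon 2 of 3 of Bcl2l1), chr7:45466006-45466023 (exon 3 of 6 of Bax), chr17:27022540-27022557 (exon 4 of 6 of Bak1) and chr6:120897298-120897315 (exon 4 of 6 of Bid). On the plus strand they are at chr3:95659436-95659453 (exon 1 of 3 of Mcl1), chr19:6950792-6950809 (exon 3 of 4 of Bad), chr2:128147150-128147167 (exon 3 of 4 of Bcl2l11) and chr7:16313773-16313790 (exon 3 of 4 of Bbc3). For 8 of the 9 genes the transcript read is linked to a RefSeq transcript counted in at least 1 depot, and for Bcl2l1 another transcript was read. For Bak1 the entry counted in BAT is a coding one, and the entry counted in both white depots is a non-coding one. The match is a description of the letters and not evidence of binding.

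Depth was lower in BAT (7803108 to 12428683 counts per library) than in iWAT (16506034 to 19043523) or eWAT (16717201 to 19139694). Casp6 itself was lower in all C6KO libraries (3.32 to 8.09 CPM, the count scaled to the library size after TMM normalisation) than in all WT libraries (11.9 to 21.2 CPM), with reads remaining in C6KO. It was called in eWAT (log2 fold change -1.85, SE 0.19, adjusted p = 0.0132) and missed the threshold in iWAT (-1.51, adjusted p = 0.0751) and BAT (-1.50, adjusted p = 0.0671) in edgeR, and DESeq2 called it in each depot. Which part of Casp6 the knockout allele removes was not given in the sources used here. Brown adipocyte markers (7 genes) summed to 7060 to 16800 CPM in BAT and to at most 113 CPM in the white depots, as the depot labels say. The macrophage list (12 genes, none at 0 in any group) moved with genotype and with depot. In iWAT it summed to 2140 to 2460 CPM in WT and to 573, 626 and 1610 CPM in C6KO. The eWAT sums were 7110 to 9200 CPM in WT and 4400 to 5980 CPM in C6KO, and those of BAT 869 to 1230 and 345 to 527 CPM. The third iWAT library of C6KO stood apart with its 1610 CPM. The second BAT library of WT held 32400 CPM of the 7 skeletal muscle genes, against 41.9 to 6370 CPM in the other BAT libraries, together with 111 CPM of the 6 B cell genes and 48.1 CPM of the 7 T cell genes. In bulk tissue, fewer cells of a type and less RNA per cell cannot be told apart.

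Mcl1 was the most abundant member in each of the 6 groups when levels were put on a per-length scale (CPM per kb of the counted transcript), and Pmaip1 the least abundant. Mcl1 reached 114 ± 3.87 CPM per kb in eWAT of WT, 74.5 ± 7.07 in iWAT and 66.7 ± 5.28 in BAT (SD, n = 3). Bax came next in the WT groups, at 51.5 ± 5.36 in eWAT, 36.4 ± 4.93 in iWAT and 26.0 ± 6.86 CPM per kb in BAT (SD, n = 3). Bcl2, the member that gave the family its name, reached 4.73 ± 0.889 CPM per kb in iWAT of WT, 3.94 ± 0.693 in its eWAT and 2.43 ± 0.636 in its BAT (SD, n = 3), and lay below Bcl2l1 in each of the 18 libraries.

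In iWAT of WT the order by CPM per kb was Mcl1, Bax, Bak1, Bcl2l1, Bad, Bid, Bbc3, Bcl2, Bcl2l11 and Pmaip1. The libraries of Bak1 overlapped those of Bcl2l1, those of Bcl2l1 overlapped those of Bad, and Bbc3, Bcl2 and Bcl2l11 overlapped in turn, so these neighbours did not differ beyond their spread. In eWAT of WT, Bcl2l11 stood in place 7 with 6.55 to 9.02 CPM per kb, above every library of Bbc3 (4.42 to 4.72) and of Bcl2 (3.15 to 4.43). In BAT of WT it was in place 8 with 1.84 to 3.10 CPM per kb, and its libraries overlapped those of Bbc3 and Bcl2. In BAT of C6KO, Bcl2l1 (20.7 to 30.9 CPM per kb) had the higher mean and Bax (16.1 to 22.3) the lower, with overlapping libraries.

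Summed over the 3 anti-apoptotic members, the level in WT was 146 to 154 CPM per kb in eWAT, 89.5 to 111 in iWAT and 82.3 to 105 in BAT. Mcl1 alone made up 61.1% to 77.6% of that sum across the 18 libraries. The 2 effectors summed in WT to 71.6 to 86.1 CPM per kb in eWAT, 59.1 to 64.8 in iWAT and 36.3 to 51.5 in BAT. The 5 BH3-only members summed to 40.1 to 44.1, 35.1 to 38.2 and 27.4 to 33.7 CPM per kb in the same order. In WT, the 3 depots did not overlap in the effector sum or the BH3-only sum, with eWAT highest and BAT lowest. In C6KO, eWAT and iWAT overlapped in both. The effectors summed there to 57.3 to 85.4 CPM per kb in eWAT and 44.2 to 63.1 in iWAT, and the BH3-only members to 33.6 to 41.6 and 31.2 to 35.6. BAT of C6KO lay below both white depots, at 28.5 to 34.9 for the effectors and 24.4 to 28.9 for the BH3-only members. The share of the anti-apoptotic members in the total of all 10 ranged from 46.5% to 62.3% over the 18 libraries.

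**Figure D1:**
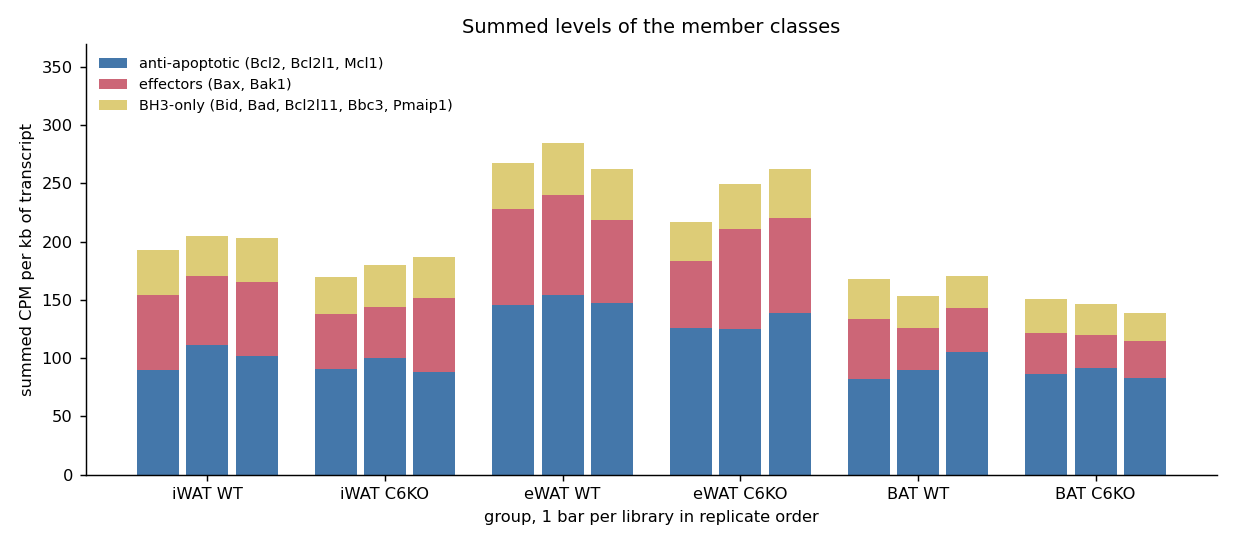
Summed CPM per kb of transcript (y axis) for the anti-apoptotic, effector and BH3-only members, stacked, with 1 bar per library for the 6 groups (x axis). All 3 eWAT libraries of WT total 262 to 284, above the 192 to 205 of iWAT and the 153 to 171 of BAT.

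Every member but Bad and Bcl2l1 was called in at least 1 comparison between depots. The first question was how eWAT differs from iWAT, both of them white fat. In WT, 3 of the 10 members were called higher in eWAT (Mcl1, Bcl2l11 and Pmaip1) and 0 lower, in edgeR's quasi-likelihood test with Benjamini-Hochberg adjustment, where a call needed an adjusted p below 0.05 and a change of at least 1.5-fold. Over all 15866 genes tested, 25.7% were called by this rule. The median log2 fold change over the 10 members was 0.34, against 0.01 over all genes tested. In C6KO, Mcl1, Bcl2l11, Pmaip1 and Bax were called higher, 4 of 10, where 24.6% of all genes tested were called. The CPM values of the depot comparisons are scaled over all 18 libraries. Libraries of eWAT and iWAT did not overlap for 9188 of the 15866 genes tested in WT and for 6665 in C6KO.

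Mcl1, a short-lived anti-apoptotic protein that many immune cells depend on, stood at 233, 282 and 263 CPM in iWAT and at 391, 414 and 389 CPM in eWAT of WT. In C6KO it stood at 220, 225 and 223 CPM in iWAT and at 341, 319 and 370 CPM in eWAT. All eWAT libraries were above all iWAT libraries in both genotypes, by a log2 fold change of 0.62 (SE 0.12, adjusted p = 0.000992) in WT and 0.62 (SE 0.12, adjusted p = 0.000844) in C6KO. The WT value lies just over the 1.5-fold line, and without the first iWAT library of WT it was 0.55 and no longer past it (adjusted p = 0.00858). Without the third eWAT library of C6KO, Mcl1, Bax and Pmaip1 were no longer called in C6KO, leaving 1 of 10. That library held 281 CPM of the B cell genes, against 26 and 26.2 CPM in the other eWAT libraries of C6KO. Without the first iWAT library of C6KO, Bax and Pmaip1 were no longer called, leaving 2 of 10. The Bax call was also lost without the second iWAT or the second eWAT library of C6KO, and Bcl2 was called too without the third iWAT library.

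Bcl2l11, the BH3-only gene whose protein BIM binds all anti-apoptotic members and is widely used to remove immune cells, stood at 27.7, 17.4 and 19.0 CPM in iWAT and at 33.0, 45.4 and 43.0 CPM in eWAT of WT. In C6KO it stood at 9.25, 7.52 and 16.5 CPM in iWAT and at 30.2, 30.4 and 32.3 CPM in eWAT. The depots did not overlap in either genotype, and eWAT was higher by a log2 fold change of 0.92 (SE 0.27, adjusted p = 0.0153) in WT and 1.48 (SE 0.28, adjusted p = 0.000625) in C6KO. In WT the call was lost without the second or the third iWAT library or without the second eWAT library, with a lowest estimate of 0.78 (adjusted p = 0.0721). In C6KO Bcl2l11 remained called whichever of the 6 libraries was left out.

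Pmaip1, a BH3-only gene induced by p53 and by interferon whose protein acts mainly against MCL1, was the member with the largest ratio between depots. It stood at 1.72, 2.38 and 1.12 CPM in iWAT and at 5.03, 11.5 and 7.76 CPM in eWAT of WT. In C6KO it stood at 0.561, 1.59 and 2.06 CPM in iWAT and at 4.07, 3.04 and 6.93 CPM in eWAT. Every eWAT library was above every iWAT library of its genotype, by a log2 fold change of 2.21 (SE 0.51, adjusted p = 0.00322) in WT and 1.73 (SE 0.51, adjusted p = 0.0157) in C6KO. In eWAT of WT the highest of the 3 Pmaip1 values belonged to the second library, which also had the highest T cell sum there (86.3 CPM, against 21.5 and 43.2) and the highest macrophage sum (9200 CPM). The macrophage sum was higher in every eWAT library than in every iWAT library of its genotype, and its part in the differences of Mcl1, Bcl2l11 and Pmaip1 was not tested. The mesothelial list (5 genes) moved with these depots too, at 41.4 to 184 CPM in eWAT and 1.49 to 6.86 CPM in iWAT. In WT, 5 of 6 mast cell genes were called higher in eWAT (219 to 327 CPM summed, against 54.6 to 78.3), and 6 of 6 endothelial genes lower (501 to 568 CPM, against 1040 to 1450). All 6 adipocyte genes were lower in eWAT of WT as well, at 7960 to 9560 CPM against 20900 to 23600 CPM. The part of these lists in the members' values was not tested.

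Bax and Bcl2l1 lay near the threshold in the same comparison. Bax stood at 35.4, 26.9 and 31.7 CPM in iWAT and at 48.1, 45.7 and 39.2 CPM in eWAT of WT, without overlap, with a log2 fold change of 0.50 (SE 0.22, adjusted p = 0.0945). In C6KO the Bax value was 0.65 (SE 0.22, adjusted p = 0.0348), with overlapping libraries. Bcl2l1, which encodes the anti-apoptotic BCL-XL, was 80.4, 81.3 and 80.9 CPM in eWAT against 49.5, 66.1 and 54.9 CPM in iWAT of WT, at 0.51 (SE 0.19, adjusted p = 0.0554). Bcl2, Bak1, Bid, Bad and Bbc3 had log2 fold changes between -0.26 and 0.19 in WT and were not called.

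BAT was then compared with the white depots, the question being how thermogenic fat differs. In WT, 5 of 10 members were called lower in BAT than in iWAT (Bcl2, Bak1, Bid, Bcl2l11 and Bbc3) and 0 higher, where 38.7% of all genes tested were called. Against eWAT, 7 of 10 were called lower in BAT of WT (Bcl2, Mcl1, Bax, Bak1, Bid, Bcl2l11 and Pmaip1) and 0 higher, where 48.6% were called. In C6KO, 4 of 10 were lower than in iWAT (Bcl2, Bax, Bak1 and Bid; 38.2% of all genes called), and the same 7 genes as in WT were lower than in eWAT (50.1% of all genes called). The members' median log2 fold change was -0.58 against iWAT and -0.80 against eWAT in WT, and -0.40 and -1.22 in C6KO, while the median over all genes tested stayed between -0.04 and 0.03. The 3 depot comparisons share libraries and are not independent of each other. Of the 15866 genes tested in WT, 8772 did not overlap between BAT and iWAT, and 10185 between BAT and eWAT. In C6KO these were 8252 and 10242 genes.

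Bid, the BH3-only gene whose protein is cut by caspase-8 and so links death receptors to mitochondria, was called lower in BAT than in each white depot in both genotypes. It stood at 6.57, 9.54 and 8.81 CPM in BAT of WT, against 17.1, 18.4 and 17.8 CPM in iWAT and 18, 20.3 and 22.5 CPM in eWAT. In C6KO it stood at 8.95, 4.85 and 3.64 CPM in BAT, 20, 24.9 and 17.8 CPM in iWAT and 19.3, 18.4 and 24.1 CPM in eWAT. All 6 BAT libraries were below all 12 white fat libraries. BAT against iWAT gave a log2 fold change of -1.09 (SE 0.24, adjusted p = 0.00163) in WT and -1.86 (SE 0.25, adjusted p = 1.32e-05) in C6KO. Against eWAT it was -1.28 (SE 0.24, adjusted p = 0.000275) in WT and -1.84 (SE 0.25, adjusted p = 8.18e-06) in C6KO.

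Bcl2 had 12.4, 21.3 and 18.7 CPM in BAT of WT, against 27.4, 34.7 and 40.2 CPM in iWAT and 22.7, 31.9 and 30.6 CPM in eWAT. In C6KO it had 12.3, 8.90 and 10.3 CPM in BAT, against 44.2, 62.5 and 28.4 CPM in iWAT and 34.2, 26.3 and 39.2 CPM in eWAT. Every BAT library was below every white fat library here too. The log2 fold change of BAT against iWAT was -0.96 (SE 0.27, adjusted p = 0.00733) in WT and -2.11 (SE 0.28, adjusted p = 1.03e-05) in C6KO. Against eWAT it was -0.69 (SE 0.27, adjusted p = 0.0345) in WT, a call lost without the second or the third eWAT library or the first or the third BAT library, with a highest estimate of -0.50 (adjusted p = 0.147) without the first BAT library. Against eWAT in C6KO it was -1.67 (SE 0.27, adjusted p = 6.08e-05).

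The effector Bak1 stood at 35.5, 30.8 and 30 CPM in BAT of WT, at 47.9, 56.3 and 53.8 CPM in iWAT and at 52.1, 66.5 and 52.5 CPM in eWAT, with no overlap between BAT and either white depot. Its log2 fold change against iWAT was -0.72 (SE 0.16) in both genotypes, with adjusted p = 0.0016 in WT and 0.0015 in C6KO. The transcript counted for Bak1 was a coding entry of 1995 bases in BAT and a non-coding entry of 2016 bases in the white depots, which are 2 entries of the same gene. Bax, the other effector, was called lower in BAT than in eWAT, at -0.99 (SE 0.23, adjusted p = 0.0013) in WT and -1.35 (SE 0.23, adjusted p = 8.52e-05) in C6KO. Without the third iWAT library of C6KO, Bak1 and Bax were no longer called lower in BAT than in iWAT of C6KO, leaving Bcl2 and Bid. The Bax call was also lost without the second or the third BAT library of C6KO. In WT, Bax was not called against iWAT (-0.49, SE 0.23, adjusted p = 0.0842), and without the first BAT library, its highest at 29.1 CPM, it was (-0.72, adjusted p = 0.023).

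Bcl2l11 stood at 14.5, 15.6 and 9.25 CPM in BAT of WT, below all 6 white fat libraries of WT. It was called lower than in eWAT at -1.63 (SE 0.28, adjusted p = 0.000105). The difference from iWAT was smaller, at -0.71 (SE 0.28, adjusted p = 0.0459), and was lost without the first or the third library of either depot in WT, with a highest estimate of -0.48 (adjusted p = 0.207) without the first iWAT library. Bbc3, a p53 target, was at 6.57, 5.52 and 7.27 CPM in BAT and 10.4, 11.7 and 8.80 CPM in iWAT of WT (log2 -0.68, SE 0.24, adjusted p = 0.0299), and in C6KO its value was 0.08 (SE 0.24, adjusted p = 0.813). Without the second BAT library of WT, the one with the most skeletal muscle RNA, the Bbc3 call was lost (log2 fold change -0.57, adjusted p = 0.0994). The other 4 members remained lower than in iWAT, and all 7 remained lower than in eWAT. The Bbc3 call was also lost without the first or the second iWAT library or the first BAT library of WT. Without the first iWAT library of WT, 3 of the 5 calls remained. Macrophage sums were lower in BAT than in both white depots of the same genotype, and their part in these differences was not tested.

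Bad, a BH3-only gene whose protein is held inactive by phosphorylation under growth factor signalling, was the steadiest in its depot comparisons, with log2 fold changes between -0.19 and 0.27 and 0 calls in the 6. Its libraries ranged from 17.4 to 34.2 CPM. In C6KO the BAT libraries of Bad (25.1 to 25.6 CPM) lay above those of iWAT (22.1 to 24.9) and eWAT (17.4 to 23.8). Of the 15866 genes tested, 8252 and 10242 did not overlap in these 2 comparisons. Bcl2l1 was not called in any of the 6 either, with values between -0.41 and 0.51 and a range of 46.9 to 83.6 CPM. Under total counts as the only scaling it was called in WT, higher in eWAT than in iWAT (0.65, adjusted p = 0.0202) and lower in BAT than in eWAT (-0.69, adjusted p = 0.00818). Leaving out the third BAT library of WT, the highest of the 3, also put it past the threshold against eWAT (-0.70, adjusted p = 0.0036). Without the second iWAT library of WT it was called higher in eWAT than in iWAT (0.62, adjusted p = 0.0486). Mcl1 in BAT (211, 240 and 246 CPM in WT, 224, 225 and 177 CPM in C6KO) was not called against iWAT, at -0.16 (SE 0.12, adjusted p = 0.294) in WT and -0.10 (SE 0.12, adjusted p = 0.536) in C6KO. Against eWAT it was called lower in both genotypes.

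**Figure D2:**
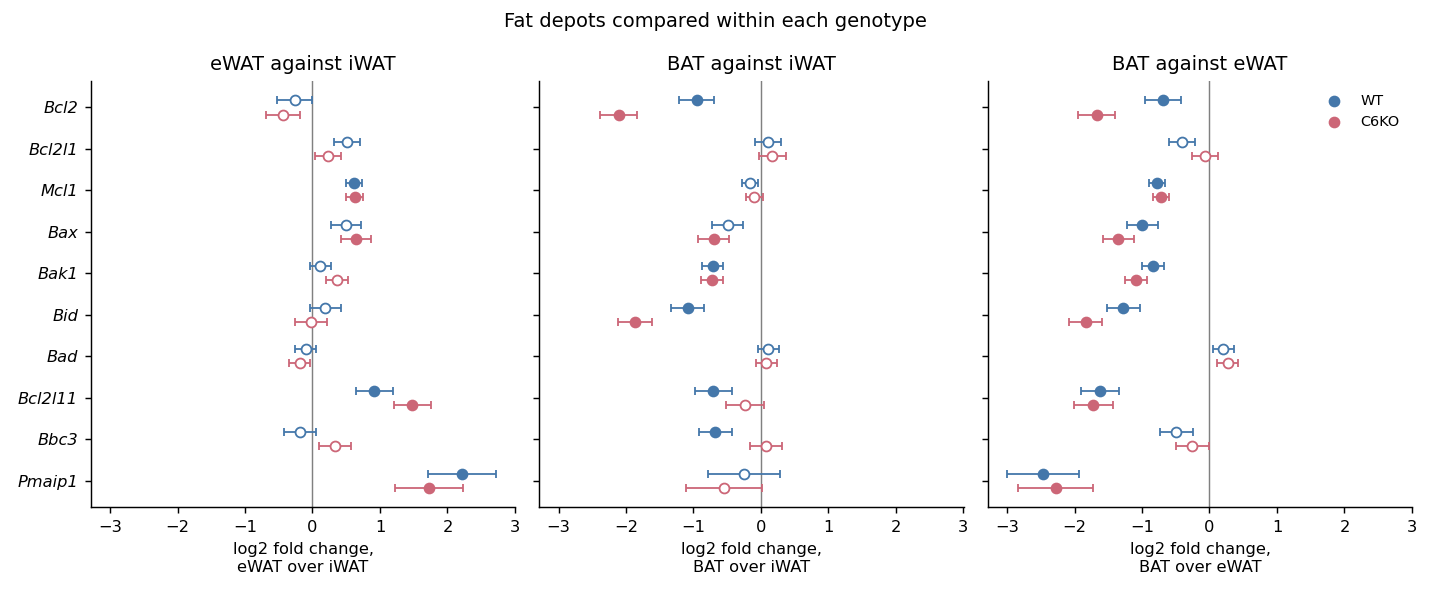
Log2 fold change (x axis) of each member (y axis) between fat depots, with WT in blue and C6KO in red, bars of 1 SE and filled points for members called at an adjusted p below 0.05 and at least 1.5-fold. Pmaip1 lies at 2.21 and 1.73 for eWAT against iWAT, and Bid at -1.09 and -1.86 for BAT against iWAT.

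The second question was whether loss of caspase-6, an executioner caspase that acts below this family, goes with a change of its RNA. Between C6KO and WT, edgeR called 0 of 10 members in iWAT, where 0.0275% of the 14533 genes tested were called. It called 0 of 10 in eWAT (0.746% of 14889 genes) and 0 of 10 in BAT (1.24% of 13595 genes). By DESeq2 it was 0 members in each depot, with 3.55% of all genes it tested called in iWAT, 3.15% in eWAT and 2.9% in BAT. Estimates were lower in C6KO for 7, 7 and 8 of the 10 members in iWAT, eWAT and BAT. Over all genes tested, 6718 of 14533, 7576 of 14889 and 7328 of 13595 were lower in the same order. The members' medians were -0.23, -0.13 and -0.38 on the log2 scale, against 0.03, -0.01 and -0.03 over all genes tested. For this comparison the CPM values are scaled within the depot.

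At an unadjusted p below 0.05, edgeR singled out 1 of 10 members in each depot, where 16.5% (iWAT), 17.6% (eWAT) and 13.2% (BAT) of all genes passed, so the members did not stand out from the background. Groups did not overlap for 2 members in iWAT (Mcl1 and Bcl2l11) and 2 in eWAT (Bcl2l1 and Mcl1), where 23.2% of all genes did not overlap in each, and for 0 in BAT, where 20.2% did not. These are 3 genes, with Mcl1 in both depots, and each lay lower in C6KO. Of all genes without overlap, 1780 of 3367 lay lower in iWAT and 1664 of 3451 in eWAT.

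Bcl2l11 had the largest estimate in iWAT, with 27.5, 17.2 and 18.9 CPM in WT and 9.24, 7.48 and 16.3 CPM in C6KO. The third C6KO library was close to the WT range and the other C6KO libraries lay well below it. The log2 fold change was -0.94 (SE 0.31, adjusted p = 0.207), with an unadjusted p of 0.0149 in edgeR, and DESeq2 gave an adjusted p of 0.0518. Without the third C6KO library, which also stood apart in macrophage markers, Bcl2l11 was called lower at -1.36 (SE 0.24, adjusted p = 0.0105). In that fit 8.64% of 14798 genes were called, 1278 in place of 4, and Bcl2l11 was the only member called. The macrophage sum was likewise highest in the third library, at 1610 CPM against 573 and 626 CPM in the other C6KO libraries. That library also had the highest neutrophil, T cell, B cell and liver sums of C6KO in iWAT, with liver at 238 CPM against 42.8 and 42.4 CPM. Its skeletal muscle sum was the lowest, at 102 CPM against 592 and 233 CPM. The part of these sums in the difference was not tested.

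In eWAT, Bcl2l11 had 36.0, 50.4 and 47.5 CPM in WT and 33.4, 33.3 and 36.0 CPM in C6KO, so the groups met at 36.0 CPM. This gave a log2 fold change of -0.38 (SE 0.14, adjusted p = 0.189), with an unadjusted p of 0.0209 in edgeR. In BAT the values were 12.8, 14.7 and 8.40 CPM in WT and 9.34, 6.30 and 10.3 CPM in C6KO, and the groups overlapped, with a log2 fold change of -0.47 (SE 0.28, adjusted p = 0.525). The estimate was thus below 0 in each depot and past the threshold in none. In each depot the macrophage sums of the C6KO libraries all lay below those of WT, and their part in these values was not tested.

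Promoter sequence of Bcl2l11 and Bbc3 is shown because both genes are textbook targets of FOXO forkhead factors. RefSeq windows (GRCm38.p6, 250 bases before to 50 after a start) were read for 9 members, 15 windows in all. Pmaip1 and all windows on its chromosome were left out of the search. GTAAACA, a forkhead core, was searched on both strands, and it was in 1 Bcl2l11 window and 1 Bbc3 window, against 3.65% of all 32851 windows. The p53 decamer, searched by its name, was found in 1 window, that of Bax, and in 8.36% of all windows. The 250 bases before the start are printed with the GTAAACA match in capitals, for Bcl2l11 at chr2:128125788-128126037 and for Bbc3 at chr7:16310011-16310260, both on the plus strand. In the Bbc3 window the match reads on the opposite strand:

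Bcl2l11: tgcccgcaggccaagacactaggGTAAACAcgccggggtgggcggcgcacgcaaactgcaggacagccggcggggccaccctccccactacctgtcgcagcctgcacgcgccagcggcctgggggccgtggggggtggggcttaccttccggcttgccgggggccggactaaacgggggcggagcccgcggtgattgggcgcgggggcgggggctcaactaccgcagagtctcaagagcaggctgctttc
Bbc3: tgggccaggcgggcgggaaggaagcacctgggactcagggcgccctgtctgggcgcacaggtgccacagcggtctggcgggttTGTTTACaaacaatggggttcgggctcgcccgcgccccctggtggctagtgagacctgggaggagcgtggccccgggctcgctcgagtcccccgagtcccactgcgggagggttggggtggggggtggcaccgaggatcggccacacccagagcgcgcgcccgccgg

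The match begins 227 bases before the start in Bcl2l11, which is the start of the counted transcript. For Bbc3 it begins 167 bases before another start than that of the counted transcript. The window at the counted start of Bbc3 (chr7:16309333-16309632) held 0 matches, and the printed match lies downstream of that start. The windows of the members held 49.3% to 78.0% G and C, with a median of 52.7% over all windows. Bbc3 stood at 10.3, 11.6 and 8.73 CPM in WT and 6.61, 6.17 and 9.17 CPM in C6KO of iWAT (log2 fold change -0.48, SE 0.23, adjusted p = 0.334), and its values were 0.04 (SE 0.17, adjusted p = 0.94) in eWAT and 0.28 (SE 0.31, adjusted p = 0.754) in BAT. RNA levels say nothing on whether a factor binds these letters.

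Mcl1 was 231, 278 and 261 CPM in WT and 220, 224 and 220 CPM in C6KO of iWAT. In eWAT it was 427, 459 and 430 CPM in WT and 377, 349 and 412 CPM in C6KO. The groups did not overlap in these 2 depots, with log2 fold changes of -0.21 (SE 0.12, adjusted p = 0.416) and -0.21 (SE 0.11, adjusted p = 0.365). In BAT it was 187, 226 and 223 CPM in WT and 207, 207 and 161 CPM in C6KO, at -0.15 (SE 0.17, adjusted p = 0.77). Mcl1 lies on the same chromosome as Casp6, 34238237 bases away, and whether other alleles there came along with the knockout was not tested.

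Bcl2 had the largest estimate in BAT, with 11, 20.1 and 17 CPM in WT and 11.4, 8.20 and 9.34 CPM in C6KO. The first WT library lay inside the C6KO range. For Bcl2 the log2 fold change was -0.74 (SE 0.26, adjusted p = 0.246), with an unadjusted p of 0.0181 in edgeR. The highest value was in the second WT library, the BAT library with the most skeletal muscle, B cell and T cell RNA. Without that library the log2 fold change was -0.54 (adjusted p = 0.422). In iWAT the estimate had the other sign, at 0.41 (SE 0.28, adjusted p = 0.505) with 27.2, 34.3 and 39.9 CPM in WT and 44.2, 62.2 and 28.1 CPM in C6KO, and in eWAT it was 0.23 (SE 0.18, adjusted p = 0.586).

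Bcl2l1 was 87.7, 90.3 and 89.3 CPM in WT and 68.6, 86.5 and 80.1 CPM in C6KO of eWAT, without overlap, at -0.18 (SE 0.11, adjusted p = 0.436). For the effector Bax the estimates were -0.25 (iWAT), -0.10 (eWAT) and -0.45 (BAT), and for Bak1 -0.32, -0.07 and -0.31 in the same order, with SE between 0.13 and 0.22 and adjusted p from 0.354 to 0.853. Bid was 0.24 (SE 0.16) in iWAT, 0.03 (SE 0.15) in eWAT and -0.52 (SE 0.37) in BAT, and Bad was -0.06 (SE 0.14), -0.15 (SE 0.14) and -0.08 (SE 0.18). Pmaip1 was estimated lower in each depot, at -0.30 (SE 0.55), -0.79 (SE 0.38) and -0.60 (SE 0.59), with adjusted p of 0.822, 0.339 and 0.723. In eWAT its values were 5.49, 12.7 and 8.57 CPM in WT and 4.50, 3.33 and 7.71 CPM in C6KO, so the groups overlapped. With an SE of up to 0.59, a change of 1.5-fold in Pmaip1 was not detectable at this depth and number of libraries.

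**Figure D3:**
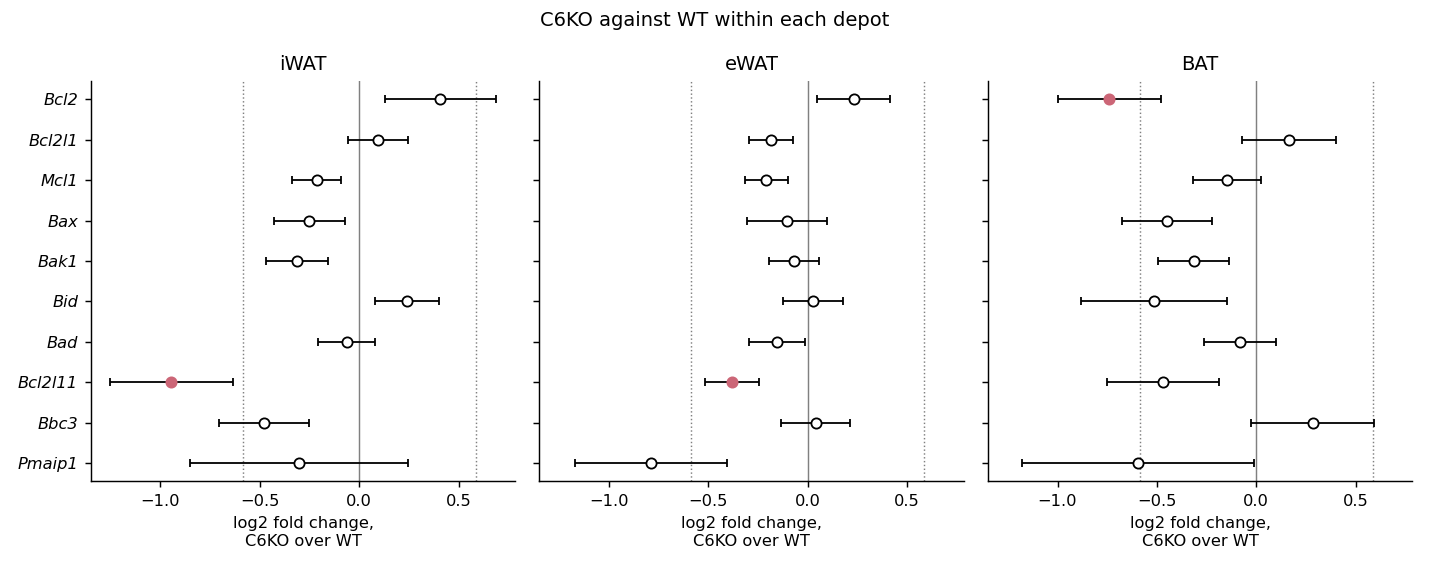
Log2 fold change of C6KO over WT (x axis) for each member (y axis) within iWAT, eWAT and BAT, with bars of 1 SE, dotted lines at 1.5-fold and red points for an unadjusted p below 0.05. Red points are Bcl2l11 at -0.94 in iWAT and -0.38 in eWAT and Bcl2 at -0.74 in BAT, and 0 members passed an adjusted p below 0.05.

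Whether the C6KO effect differs between depots was tested as an interaction in the fit of all 18 libraries. Among the 10 members 0 were called in any of the 3 contrasts, where 0% of 15866 genes were called for eWAT minus iWAT, 0.183% for BAT minus iWAT and 0.536% for BAT minus eWAT. DESeq2 called 0 members as well. At an unadjusted p below 0.05, edgeR gave 0 of 10 for eWAT minus iWAT (5.48% of all genes), 3 of 10 for BAT minus iWAT (9.93%) and 1 of 10 for BAT minus eWAT (11.2%). Bcl2 was the member in both, with a difference of the C6KO effect of -1.15 (SE 0.38, adjusted p = 0.311) for BAT minus iWAT and -0.98 (SE 0.38, adjusted p = 0.321) for BAT minus eWAT. Bid (-0.77, SE 0.35, adjusted p = 0.471) and Bbc3 (0.75, SE 0.34, adjusted p = 0.477) were the others for BAT minus iWAT. The 2 contrasts share the BAT libraries.

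**Figure D4:**
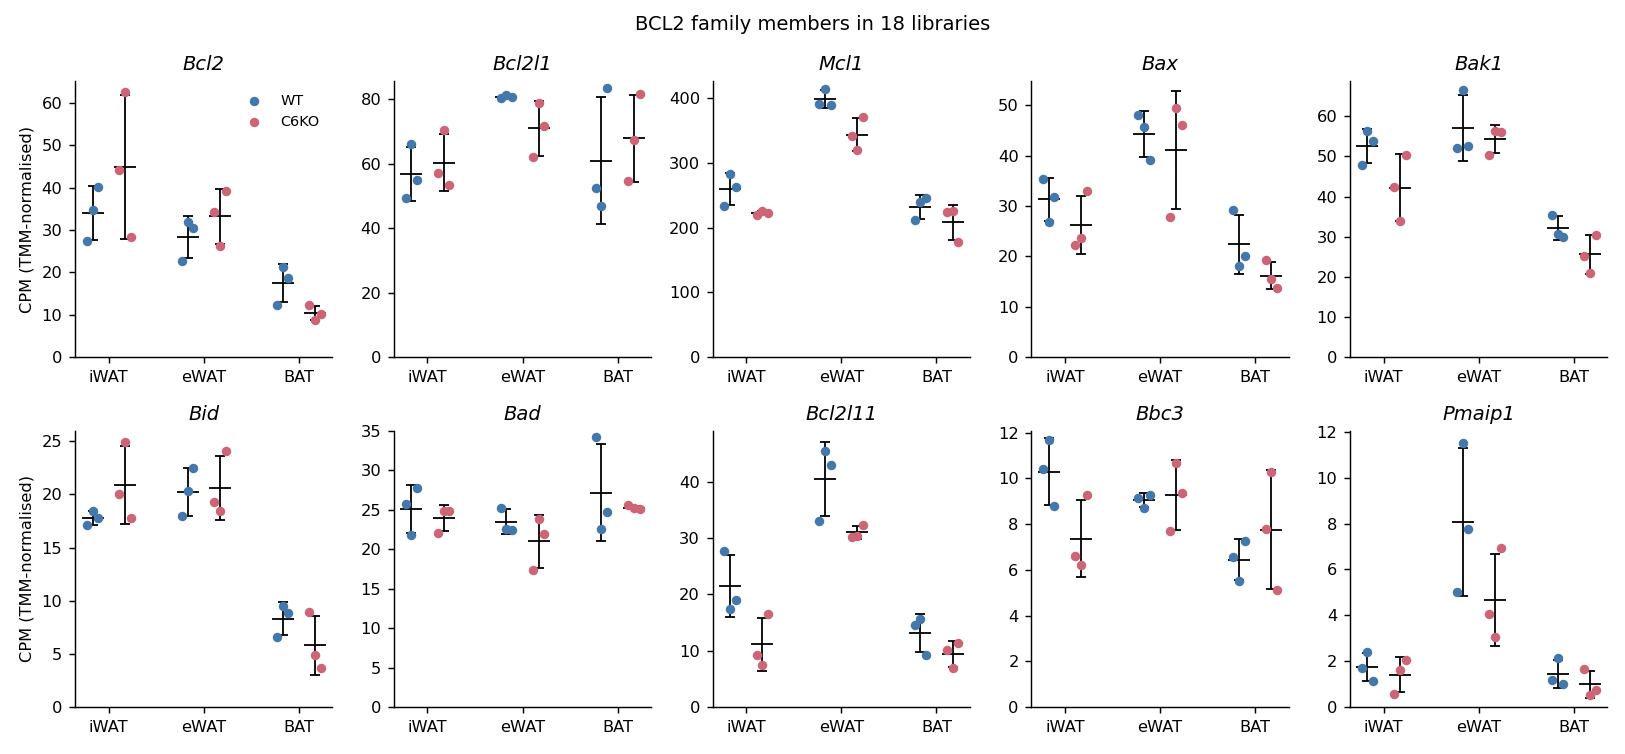
CPM of each member (y axis, TMM-normalised over all 18 libraries) in iWAT, eWAT and BAT (x axis), with 1 point per library, WT in blue, C6KO in red, and the mean and SD of 3 libraries in black. Pmaip1, Bcl2l11 and Mcl1 are highest in eWAT, and Bid and Bcl2 are lowest in BAT in both genotypes.

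The rest of the mitochondrial pathway was read from 55 listed symbols around the family, of which 54 were in the tables and the other is a second name of a listed gene (other BCL2 relatives, apoptosome and caspases, released mitochondrial proteins, inhibitors of apoptosis, p53 and stress inputs, death receptor inputs to Bid, and regulators of MCL1 turnover). Between C6KO and WT, edgeR called 0 of the 50 tested in iWAT, 0 of the 50 in eWAT and 0 of the 46 in BAT. At an unadjusted p below 0.05, iWAT had 2 that were higher and 5 lower, eWAT 6 higher and 3 lower, and BAT 2 higher and 6 lower. Over all genes the shares were 16.5%, 17.6% and 13.2% in that order, so the pathway counts are near the background. DESeq2 called 1 gene in each depot, in each case lower in C6KO. Between depots in WT, 5 were called higher and 8 lower of 52 for eWAT against iWAT, 10 and 13 for BAT against iWAT, and 13 and 14 for BAT against eWAT. Over all genes 25.7%, 38.7% and 48.6% were called in the same order, so these counts too are near the background. Their medians of 0.02, -0.03 and -0.04 were close to 0, where those of the 10 members were 0.34, -0.58 and -0.80. Only counts and medians are compared here.

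The other anti-apoptotic relatives are led by Bcl2a1b, an A1 gene known from leukocytes, and Bcl2l2, which encodes BCL-W. Bcl2a1b was 5.75, 5.83 and 4.76 CPM in WT and 1.23, 0.769 and 2.35 CPM in C6KO of iWAT on the scale of all 18 libraries, with a log2 fold change of -1.90 (SE 0.41, adjusted p = 0.154 in edgeR, 0.00176 in DESeq2). It was -0.49 (SE 0.17, adjusted p = 0.177) in eWAT and -2.66 (SE 0.74, adjusted p = 0.139 in edgeR, 0.0438 in DESeq2) in BAT. Groups did not overlap in any of the 3 depots. The macrophage sum was lower in C6KO in each, and its part in the Bcl2a1b values was not tested. The A1 genes are near-identical copies, so their reads could be split among them and single values are uncertain. Bcl2a1d was listed at 0 in the 3 BAT libraries of C6KO, against 1.46, 0.374 and 0.441 CPM in WT, and DESeq2 called its C6KO effect different between BAT and eWAT (adjusted p = 0.0367; edgeR 0.105). Bcl2l2 had estimates of the other sign in the white depots, without overlap and not called, at 0.47 (SE 0.13, adjusted p = 0.167) in iWAT and 0.44 (SE 0.13, adjusted p = 0.111) in eWAT, and -0.09 (SE 0.15, adjusted p = 0.833) in BAT. In the same white depots the sum of 6 adipocyte markers was higher in C6KO, at 29000 to 30200 CPM against 20900 to 23600 in iWAT and 11100 to 14100 against 7960 to 9560 in eWAT. The part of these markers in the Bcl2l2 values was not tested.

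Among the other pro-apoptotic relatives, Bcl2l14 was called lower by DESeq2 in eWAT of C6KO (adjusted p = 0.00915; edgeR 0.117), from 0.704, 4.67 and 1.06 CPM in WT to 0.163, 0.196 and 0.469 CPM. The second WT library held most of that level, and it was also the eWAT library with the highest T cell sum. Whether the T cell sum has a part in the Bcl2l14 value was not tested. Bnip3, a BH3-like protein of mitophagy, was 274, 331 and 336 CPM in WT and 472, 515 and 369 CPM in C6KO of iWAT, at 0.53 (SE 0.17, adjusted p = 0.195), and not called. Its estimate was similar and not called in eWAT (0.55, SE 0.20, adjusted p = 0.205) and in BAT (0.56, SE 0.22, adjusted p = 0.306). Birc3, an inhibitor of apoptosis induced by NF-kB, was 17.1, 19.4 and 17.2 CPM in WT and 9.59, 10.4 and 11.5 CPM in C6KO of BAT, at -0.76 (SE 0.19, adjusted p = 0.1). Its values were -0.34 (SE 0.19, adjusted p = 0.419) in iWAT and -0.51 (SE 0.29, adjusted p = 0.433) in eWAT. Casp8, the caspase that cuts BID, was 34.8, 28.9 and 26.1 CPM in WT and 22.5, 19.3 and 18.6 CPM in C6KO of BAT, at -0.56 (SE 0.18, adjusted p = 0.197). Its values were 0.15 (SE 0.13, adjusted p = 0.579) in iWAT and 0.0017 (SE 0.13, adjusted p = 0.99) in eWAT. Birc3 and Casp8 were both without overlap in BAT, and neither was called in any depot.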

How the data were processed

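Poly(A) RNA of 18 libraries (3 per genotype and depot) had been sequenced on an Illumina NextSeq. Per the study's methods, STAR (default settings) placed reads on mm10, and HOMER summed those on exons, keeping 1 transcript per gene. The deposited values are the authors' raw whole-number counts, in 1 table per depot. The annotation, strandedness and tool versions were not given in the sources used here. The transcript kept differs between tables for 2619 genes, of the members only Bak1.

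From the counts, edgeR 4.0.16 in R 4.3.3 (TMM, filterByExpr, robust quasi-likelihood test, Benjamini-Hochberg adjustment over all genes tested) was run on 3 C6KO against 3 WT libraries per depot, and on all 18 libraries for depot contrasts and interactions. Calls needed an adjusted p below 0.05 and at least 1.5-fold. SE came from the F statistic. DESeq2 1.42.0 was an alternative, as were other scalings, filters, fits, the replicate number as a block and leaving out each library. Scripts were tested on simulated data. The members, gene lists and marker lists were chosen with earlier results of these data known. Genes named beside the members were Casp6 and those of the pathway lists that were called by edgeR or DESeq2 for genotype or interaction, or had 1 of the 3 smallest p-values in a depot. P-values weigh the difference between groups against the spread between libraries. Depot contrasts treated the libraries as independent, although whether depots came from the same animals was not given. Depth was 7803108 to 12428683 counts per library in BAT and 16506034 to 19139694 in the white depots. Sequences were read with Biopython 1.88 from GENCODE M21 and RefSeq windows, and figures were drawn with matplotlib 3.10.9.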

Additional observations from a re-analysis of the deposited data

How the results depend on the processing

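All 12 counts of members called (3 genotype, 6 depot and 3 interaction comparisons) stayed within 1.5 times the main count under DESeq2, DESeq2 size factors in edgeR, no filter on low counts, no fold change minimum and a fit of the groups compared or of all 18 libraries. With total counts as the only scaling, 5 members in place of 3 were called higher in eWAT than in iWAT of WT (Bax and Bcl2l1 added). That scaling moved the median log2 fold change of all genes to 0.15, -0.13 and -0.26 for eWAT against iWAT, BAT against iWAT and BAT against eWAT in WT, from 0.01, 0.01 and 0.03, and the share of all calls that were higher to 63.6%, 41.2% and 36.7% from 49.9%, 51.8% and 51.4%. The share in eWAT between genotypes went to 58.2% from 72.1%, for eWAT against iWAT in C6KO to 71.6% from 57.2%, and for BAT against eWAT in C6KO to 35.1% from 47.1%.

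Leaving out 1 library gave 0 to 1 calls for C6KO against WT in iWAT, 0 in eWAT and BAT, 2 to 3 for eWAT against iWAT in WT and 1 to 5 in C6KO, 3 to 4 for BAT against iWAT in WT and 2 to 4 in C6KO, and 6 to 7 for BAT against eWAT in WT and 7 in C6KO, and 0 for the interactions. The libraries that move a count are named beside the results; the cause was not tested.

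Signs turned only for members that were not called. With total counts as the only scaling, the log2 fold change of C6KO against WT in eWAT was -0.0118 for Bid and -0.0031 for Bbc3. In WT under that scaling Bcl2l1 was -0.0372 for BAT against iWAT, and Bad was 0.0454 for eWAT against iWAT, -0.0444 for BAT against iWAT and -0.0898 for BAT against eWAT. Leaving out 1 library gave -0.0323 to 0.21 for Bcl2l1 C6KO against WT in iWAT, -0.16 to 0.0182 for Bad C6KO against WT in iWAT, -0.70 to 0.0743 for Pmaip1 C6KO against WT in iWAT, -0.24 to 0.12 for Bax C6KO against WT in eWAT, -0.13 to 0.0626 for Bak1 C6KO against WT in eWAT, -0.10 to 0.12 for Bid C6KO against WT in eWAT, -0.0625 to 0.16 for Bbc3 C6KO against WT in eWAT, -0.17 to 0.12 for Bad C6KO against WT in BAT, -0.0081 to 0.18 for Bak1 eWAT against iWAT in WT, -0.19 to 0.26 for Bcl2l1 BAT against iWAT in WT, -0.0912 to 0.22 for Bad BAT against iWAT in WT and -0.69 to 0.0336 for Pmaip1 BAT against iWAT in WT.

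The replicate numbers do not mark shared animals or batches in the labels, and in no pair of groups did all same-numbered libraries correlate above 0.1 in their deviations from the group means, so they were not used to pair. In the pair of BAT groups the mean correlation of same-numbered libraries was -0.263, against 0.129 for the others. With the replicate block, 4 members in place of 5 were called lower in BAT than in iWAT of WT (Bcl2l11 lost, -0.69, adjusted p = 0.0633), and the other 11 counts did not change.

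With 3 libraries per group, changes well over 1.5-fold can miss the threshold between genotypes. Casp6 in iWAT, at -1.51 with an SE of 0.20, was not called by edgeR, and 4 of 14533 genes were. Pmaip1, at 0.539 to 11.5 CPM, had the highest SE among the members in each depot.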
